A study of Mus musculus with 12 samples.

Results

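Stabilised β-catenin was compared with control in cultured mouse B cell precursors sorted on B220, the form of the surface phosphatase CD45 that B lineage cells carry. The comparison takes 6 of the 12 libraries of the series, chosen by their labels and not by any measured value. The β-catenin group holds libraries 244, 255 and 262, which the sample titles call KO and whose genotype is given as bCat-lox(Ex3), from Mb1crex Catnb lox(ex3) mice. The control group holds libraries 242, 249 and 251, titled WT and given the genotype control. Whether Mb1-Cre is also present in the controls is not stated, nor are strain and age. Both groups are untreated cultures started from hematopoietic stem cells and kept in Iscoves medium; it contained IL7, a growth factor of early B lineage cells. The other 6 libraries are unsorted precursors of control genotype with or without the GSK3 inhibitor LY2090314, and they enter 1 alternative fit only.

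β-catenin, the product of Ctnnb1, is the transcriptional arm of the Wnt pathway. In cells without a Wnt signal a complex around Axin and APC holds it while the kinase GSK3 phosphorylates it, and the marked protein is destroyed. Exon 3 of Ctnnb1 encodes the phosphorylated residues, so its removal by Cre leaves a stable protein that binds DNA through TCF and LEF factors. Mb1-Cre is expressed from Cd79a, which is active from the first stages of the B lineage. Axin2, a feedback inhibitor of the pathway and its usual reporter, and Tcf7, which encodes the factor TCF1, served as reference points.

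Expression was measured as FPKM, fragment counts scaled by transcript length and by library total, as computed by the authors. Values of the β-catenin libraries are given in the order 244, 255, 262 and those of the control libraries in the order 242, 249, 251. Total counted fragments were 47047539, 49809635 and 33457870 in the β-catenin libraries and 49621179, 41600817 and 31943161 in the control libraries. The labels do not say whether libraries are separate mice or cultures, so p-values measure the spread between these libraries, which may be technical in part. No date or batch is given for them.

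Axin2 stood at 18.7, 54.0 and 36.7 FPKM in the β-catenin libraries, against 3.604, 6.98 and 4.77 FPKM in the control libraries. Its log2 fold change on the log2(FPKM + 1) scale, which understates changes of low genes, was 2.53 ± 0.41 (limma, SE) with an adjusted p of 0.0076, and 2.93 with 255 and 262 alone. Tcf7 stood at 387, 497 and 508 FPKM in the β-catenin libraries, against 4.18, 3.78 and 3.52 FPKM in the control libraries (log2 fold change 6.71 without 244). Both genes were higher in every β-catenin library than in any control. Ctnnb1 itself was at 228, 331 and 282 FPKM in the β-catenin libraries and at 284, 267 and 237 FPKM in the control libraries, and was not called (adjusted p = 0.7, and 0.152 without 244). A gene total does not show whether exon 3 is present, so it is no check of the labels.

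The libraries differ in what they hold beside B lineage RNA. Summed over 16 B lineage markers, the level was 156, 2025 and 1766 FPKM in the β-catenin libraries and 7033, 7514 and 7583 FPKM in the control libraries. The sum over 16 NK and innate lymphoid markers was 5339, 1138 and 2341 FPKM in the β-catenin libraries and 39.9, 76.1 and 38.4 FPKM in the control libraries. The 14 T lineage markers summed to 1574, 1156 and 1461 FPKM in the β-catenin libraries and to 207, 168 and 175 FPKM in the control libraries. Library 244 is therefore lowest for B lineage and highest for NK and innate lymphoid markers, and 255 is the closest of the 3 to the controls on both. Of the 16 B lineage markers 6 were called lower with 6 libraries and 14 with 255 and 262 alone, and 0 higher. Over all tested genes 17.7% and 20.5% were lower in those fits. Cd79b fell, at 5.36, 72.2 and 81.6 FPKM in the β-catenin libraries and 421, 598 and 486 FPKM in the control libraries. Cd72 and Rag1 were called in neither fit. Cd72 was at 87.1, 101 and 106 FPKM in the β-catenin libraries and 84.3, 102 and 95.5 FPKM in the control libraries. It makes up much of the sum in 244. Rag1 was at 3.23, 33.9 and 24.0 FPKM in the β-catenin libraries and 22.7, 18.4 and 14.5 FPKM in the control libraries. In bulk RNA, fewer cells of a type and less RNA per cell cannot be told apart.

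Myeloid lists separate 244 further. The 11 neutrophil markers summed to 603, 26.3 and 59.0 FPKM in the β-catenin libraries and to 2.45, 11.3 and 4.74 FPKM in the control libraries. The 11 mast cell and basophil markers summed to 431, 73.5 and 543 FPKM in the β-catenin libraries and to 4.82, 52.4 and 27.1 FPKM in the control libraries, so that 262 is high for this list as well. Stromal markers were under 1 FPKM in all 6 libraries for 10 of 10 genes, and no erythroid marker reached the level needed for a test. Xist, transcribed from the inactive X chromosome, was at 169, 0.125 and 0.143 FPKM in the β-catenin libraries and at 295, 0.0923 and 0.0752 FPKM in the control libraries. The Y-linked Ddx3y was at 19.5, 39.1 and 42.4 FPKM in the β-catenin libraries and at 0, 32.1 and 30.9 FPKM in the control libraries. Library 244 thus holds both transcripts at a high level, and each of the other 5 holds 1 of them at such a level. Results below are therefore given with 6 libraries and with 255 and 262 alone, and the part that these other cells play in them was not tested.

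**Figure D1:**
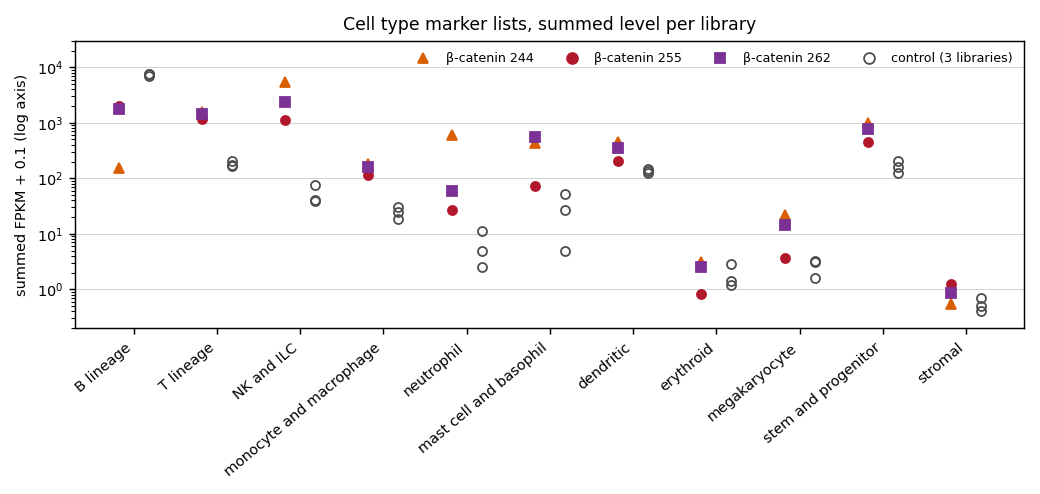
Summed level of each cell type marker list (horizontal axis) per library, in FPKM on a log axis with 0.1 added for drawing; filled symbols are the 3 β-catenin libraries and open circles the 3 control libraries. Library 244 lies at 156 FPKM for B lineage markers, against 2025 and 1766 FPKM in 255 and 262 and 7033 to 7583 FPKM in the controls.

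The comparison asks which genes differ between the β-catenin and control libraries, whose cell content differs as well. Of 12813 genes tested, 2387 (18.6%) were higher and 2269 (17.7%) lower in β-catenin libraries at an adjusted p under 0.05, so 36.3% were called, and in 55.8% the groups of 3 did not overlap. With 255 and 262 alone, 13185 genes were tested and 2997 (22.7%) were higher and 2709 (20.5%) lower, 43.3% in all. Of the 4656 genes called with 6 libraries, 4464 were called in the same direction without 244 and 0 in the opposite one. Both fits called 2303 genes higher and 2161 lower, of which 1132 and 600 differed at least 2-fold in both fits. The median log2 fold change over all tested genes was -0.02 in both fits. Centring each library on its median moved it to -0.14 and quantile normalization to -0.11, with 1932 higher and 3291 lower after centring and 1993 higher and 2891 lower after quantile normalization. Small changes in either direction are thus relative to a centre that the scaling sets. Leaving out 255 gave 2881 higher and 2536 lower, so that the fits without 244 and without 255 called more genes than the fit of 6 libraries. The other fits that left out 1 library called fewer: 1384 higher and 1192 lower without 262, 1320 and 1053 without control 242, 1285 and 955 without control 249, and 1059 and 699 without control 251.

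**Figure D2:**
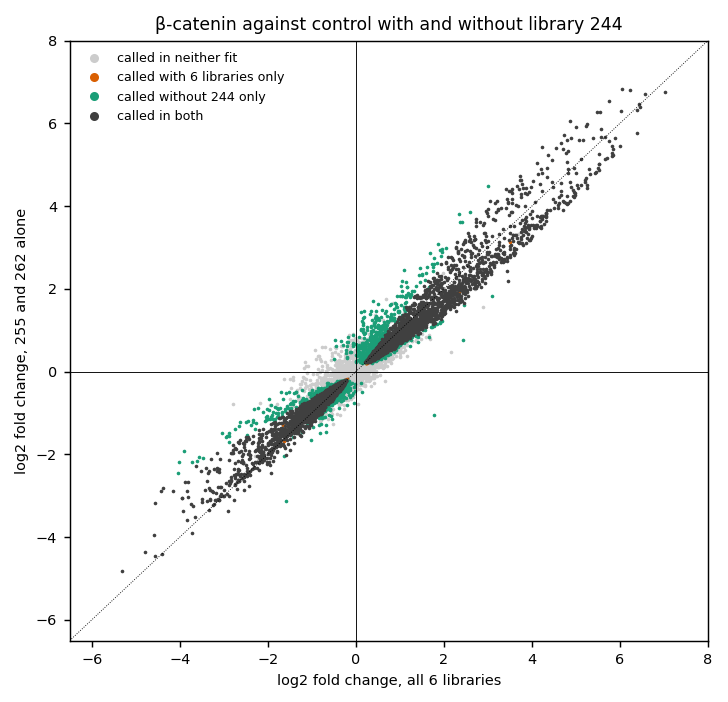
Log2 fold change of stabilised β-catenin against control for each tested gene, with 6 libraries (horizontal axis) and with 255 and 262 alone (vertical axis); the dotted line marks equal values. The 4464 dark points were called in both fits, and the points above the line on the right are genes with a lower value in 244 than the mean of 255 and 262 on the log2 scale.

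The rises fall into distinct orders of the β-catenin libraries. Among the 2303 genes higher in both fits, 1216 (52.8%) had the order 244 above 262 above 255, which is also the order of the sums of NK and innate lymphoid, T lineage, neutrophil, monocyte, dendritic and stem cell markers. Another 351 (15.2%) had the order 255 above 262 above 244, the order of the B lineage sum. Over all tested genes those orders held for 29.0% and 28.6%. In some of the sums a single gene carries much of the order. In the β-catenin libraries Cd3g of the T lineage list was at 572, 63.5 and 176 FPKM, while Thy1 of that list was at 422, 455 and 552 FPKM. Kit of the stem cell list was at 599, 169 and 271 FPKM and Itgax of the dendritic list at 268, 61.4 and 144 FPKM. Lyz2 of the monocyte list was at 90.1, 20.2 and 72.0 FPKM. The sums are therefore not separate evidence for each cell type. Of the 607 rises with a log2 fold change of at least 2, 305 were at least 2-fold higher in 244 than in the mean of 255 and 262, 122 were at most at 50% of it, and 104 varied no more than 2-fold over the 3 libraries.

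Outside the usual B, T and NK markers, the 20 highest fold changes hold all of these orders. Adgrg5, an adhesion G protein-coupled receptor on chromosome 8, was even, at 211, 179 and 199 FPKM in the β-catenin libraries and 1.25, 1.84 and 0.758 FPKM in the control libraries. Its log2 fold change was 6.46 ± 0.19 (SE, adjusted p = 4.58e-05), and 6.40 with 255 and 262 alone (adjusted p = 2.56e-05). Osbpl3, an oxysterol-binding protein that works at membrane contacts, was at 113, 126 and 109 FPKM in the β-catenin libraries and at 1.80, 1.09 and 1.07 FPKM in the control libraries (log2 fold change 5.67 in 6 libraries and 5.68 without 244). Ccr2, the receptor for the chemokine CCL2, was at 70.9, 80.4 and 68.1 FPKM in the β-catenin libraries and at 1.15, 1.34 and 0.903 FPKM in the control libraries (log2 fold change 5.12 in 6 libraries and 5.14 without 244). These 3 genes stood at similar levels in libraries whose B lineage and NK marker sums differ several-fold. The T lineage sum differed less, at 1574, 1156 and 1461 FPKM in the β-catenin libraries and 207, 168 and 175 FPKM in the control libraries. The part of T lineage cells in the level of these genes was not tested. Ccr2 is also a monocyte marker, and the 12 markers of that list summed to 182, 112 and 161 FPKM in the β-catenin libraries and 18.2, 30.7 and 24.1 FPKM in the control libraries. Of the 5 tested markers on it, 3 were called higher (Ccr2 itself, Lyz2 and Cx3cr1) and 1 lower (Csf1r) in both fits. Lyz2, the lysozyme of myeloid cells, was at 90.1, 20.2 and 72.0 FPKM in the β-catenin libraries and at 2.96, 13.6 and 7.02 FPKM in the control libraries (log2 fold change 2.35 without 244), so that Ccr2 and Lyz2 make up most of the sum in the β-catenin libraries. The part of monocytes in the level of Ccr2 was not tested.

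Of the 20 highest genes, 10 were lowest in library 244. Serpine2, a secreted inhibitor of serine proteases, was at 33.6, 149 and 86.9 FPKM in the β-catenin libraries and at 0.0114, 0.0136 and 0.0711 FPKM in the control libraries. The log2 fold change was 6.22 ± 0.51 (SE, adjusted p = 0.00147), and 6.80 without 244 (adjusted p = 2.84e-05). Ptprf, the receptor tyrosine phosphatase LAR, was at 20.6, 133 and 88.5 FPKM in the β-catenin libraries and at 0.132, 0.164 and 0.248 FPKM in the control libraries (log2 fold change 5.75 in 6 libraries and 6.53 without 244). Phlda1, a pleckstrin homology domain protein, was at 31.5, 177 and 158 FPKM in the β-catenin libraries and at 0.54, 1.66 and 1.52 FPKM in the control libraries (log2 fold change 6.27 without 244). Each of these genes was at least 2-fold lower in 244 than in 255 and yet far above every control. Stra6, the receptor that takes up retinol from its carrier in plasma, was at 14.7, 66.3 and 34.4 FPKM in the β-catenin libraries and is listed at 0 in all 3 control libraries, so its fitted fold change is no measure of size (adjusted p = 0.00238, and 7.25e-05 without 244). Spock2, a secreted proteoglycan, had 24.6, 71.4 and 53.0 FPKM in the β-catenin libraries and 0.25, 0.416 and 0.217 FPKM in the control libraries (log2 fold change 5.597 without 244).

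The same order held for Bex1, Zcchc14, Ak8, Spink2 and Ucp3, with log2 fold changes from 5.02 to 6.06 with 6 libraries and from 5.87 to 6.83 without 244. Ak8 is an adenylate kinase, Spink2 a protease inhibitor of the Kazal type and Ucp3 an uncoupling protein of mitochondria. In 255 and 262 Ak8 was at 150 and 106 FPKM, Ucp3 at 76.2 and 57.5 FPKM and Spink2 at 80.2 and 47.2 FPKM, while 244 had 24.6, 9.30 and 13.0 FPKM of these genes. Their controls did not exceed 0.273 FPKM. On recovered fragments with voom the calls of Ak8, Ucp3 and Spink2 were lost with 6 libraries (adjusted p = 0.0854, 0.11 and 0.0537).

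Another 8 of the 20 were highest in 244. A call without 244 was a condition of the list, so it says nothing further about them. Itgb7, the β7 integrin chain that pairs with the α4 and αE chains, was at 511, 101 and 220 FPKM in the β-catenin libraries and at 3.15, 7.15 and 5.59 FPKM in the control libraries (log2 fold change 5.22 in 6 libraries, 4.63 without 244). Ctsw, a cysteine protease of cytotoxic lymphocytes, was at 583, 119 and 254 FPKM in the β-catenin libraries and at 3.40, 7.02 and 4.47 FPKM in the control libraries (5.50 in 6 libraries, 4.92 without 244, on the log2 scale). Anxa2, a calcium-dependent membrane-binding protein, was at 249, 74.4 and 153 FPKM in the β-catenin libraries and at 2.37, 3.76 and 1.96 FPKM in the control libraries (log2 fold change 4.90 without 244). In these genes the β-catenin libraries follow the order of their NK and innate lymphoid sums of 5339, 1138 and 2341 FPKM. Tnfrsf9, Itgax and Hic1 had that order as well, with log2 fold changes of 4.27, 4.52 and 4.45 without 244, and Itgax is also a dendritic cell marker. The call of Tnfrsf9 was lost with voom on 6 libraries (adjusted p = 0.0509). Tnni1, the slow skeletal muscle form of troponin I, was at 97.6, 45.9 and 76.3 FPKM in the β-catenin libraries and at 0.0627, 0.549 and 0.0325 FPKM in the control libraries (log2 fold change 5.89 in 6 libraries and 5.66 without 244). All 20 genes were called whichever library was left out, which for 244 follows from how they were chosen.

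**Figure D3:**
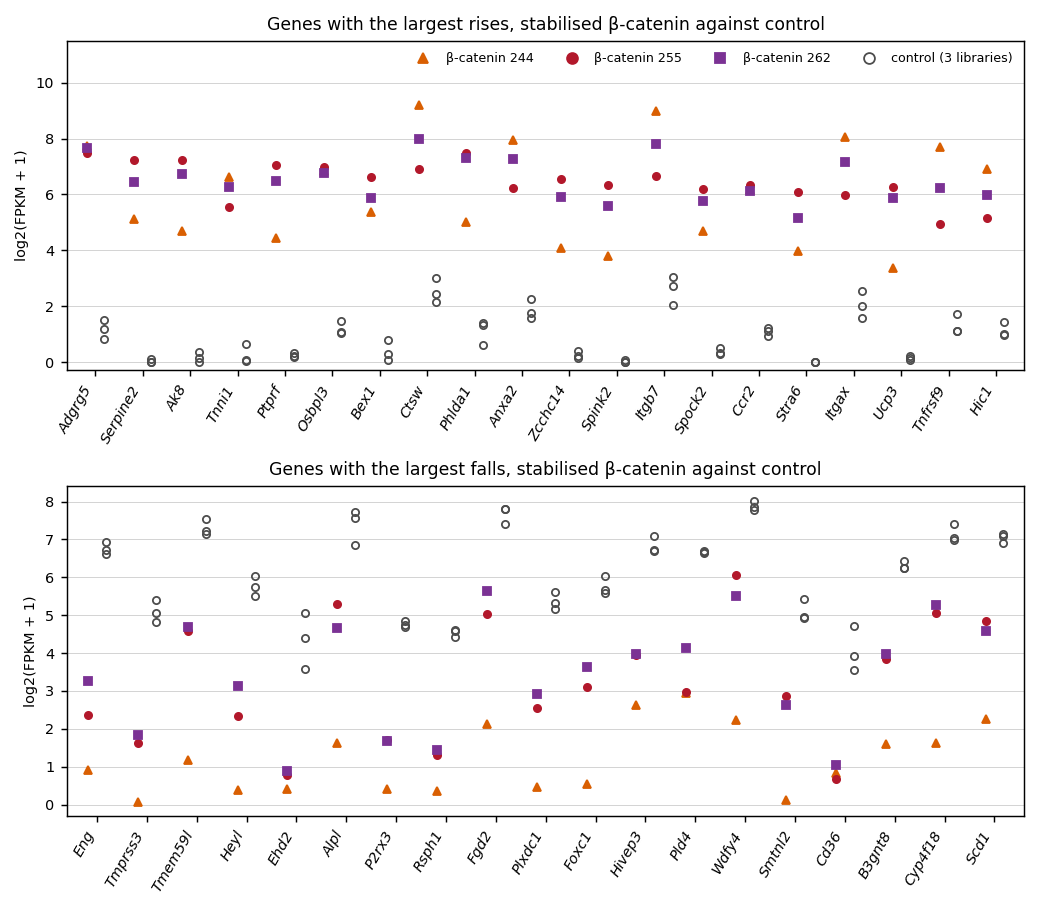
Level of the 20 genes with the largest rises (above) and 19 of the 20 with the largest falls (below), as log2(FPKM + 1) per library; filled symbols are β-catenin libraries and open circles the 3 controls. Among the rises 244 lies lowest for 10 genes and highest for 8, and among the falls shown it lies lowest for 18 of 19.

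Promoters of genes from the lists of largest changes are shown because TCF and LEF factors are known to bind short motifs of this kind. The first motif searched was CTTTGAA, the next motif searched was CTTTGAT, a further motif searched was CTTTGTA and the last motif searched was CTTTGTT, each on both strands, in 300 bases from RefSeq (build GRCm38.p6) that run from 250 before to 50 after the start of a gene, and matches are in capitals. Adgrg5 (chr8:94923444-94923743, plus strand) holds none, Ccr2 (chr9:124101933-124102232, plus strand) and Spock2 (chr10:60106007-60106306, plus strand) hold 1 each, and so does Pld4 (chr12:112760405-112760704, plus strand), a gene that fell.
Adgrg5: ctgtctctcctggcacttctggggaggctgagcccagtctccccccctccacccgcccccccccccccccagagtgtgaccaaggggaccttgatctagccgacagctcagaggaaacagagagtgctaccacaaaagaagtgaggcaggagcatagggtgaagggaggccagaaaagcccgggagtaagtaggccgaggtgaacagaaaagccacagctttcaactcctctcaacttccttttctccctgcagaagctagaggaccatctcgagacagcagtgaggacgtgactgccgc
Ccr2: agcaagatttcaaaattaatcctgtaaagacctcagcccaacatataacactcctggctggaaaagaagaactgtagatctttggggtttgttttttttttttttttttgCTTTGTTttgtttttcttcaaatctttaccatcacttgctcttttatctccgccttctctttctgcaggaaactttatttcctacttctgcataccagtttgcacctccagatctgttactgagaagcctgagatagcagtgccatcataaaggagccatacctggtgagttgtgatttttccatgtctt
Spock2: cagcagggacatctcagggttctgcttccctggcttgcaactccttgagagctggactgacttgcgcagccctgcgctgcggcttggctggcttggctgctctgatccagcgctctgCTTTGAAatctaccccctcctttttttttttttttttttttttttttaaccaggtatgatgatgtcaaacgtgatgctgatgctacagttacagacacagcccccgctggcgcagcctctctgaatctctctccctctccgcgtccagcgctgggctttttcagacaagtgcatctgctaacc
Pld4: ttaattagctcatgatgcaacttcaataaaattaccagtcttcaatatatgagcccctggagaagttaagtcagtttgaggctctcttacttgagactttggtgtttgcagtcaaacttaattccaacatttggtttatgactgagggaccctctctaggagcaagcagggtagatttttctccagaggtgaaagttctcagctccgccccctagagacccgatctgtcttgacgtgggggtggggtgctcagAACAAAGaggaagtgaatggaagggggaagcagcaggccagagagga
Of the 20 highest genes 18 had a promoter in the table and 5 of them a match in at least 1 promoter, and of the 20 lowest 14 had a promoter and 2 a match. Some of these genes have several listed promoters, and a match in any of them was counted. The shares that follow are for genes with 1 listed promoter, so these counts cannot be compared with them. Among genes with 1 listed promoter, a match was present in 11.3% of those higher in both fits, 10.1% of those lower in both fits and 10.8% of all tested genes. It was present in 15.1% of the 312 rises of at least 2 on the log2 scale and in 17.0% of the 100 falls of that size, and in 17.1% of all 22862 such promoters. A match is a run of letters and not a bound site.

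Some rises lay side by side on chromosome 1, in stretches that were picked after their values were seen. Pigr (chr1:130826684-130852249), which carries polymeric immunoglobulin across epithelia, was at 5.84, 61.3 and 44.7 FPKM in the β-catenin libraries and at 0, 0.0268 and 0 FPKM in the control libraries. Its neighbour Fcamr, a receptor for IgA and IgM, was at 3.56, 35.8 and 23.1 FPKM in the β-catenin libraries and at 0.189, 0.133 and 0.294 FPKM in the control libraries. Il24, a cytokine of the IL10 family, was at 3.79, 39.8 and 25.5 FPKM in the β-catenin libraries and is listed at 0 in all controls. All 3 were higher in 255 and 262 than in 244. Between Pigr and Il24, Fcmr, the IgM receptor of B cells, was at 0.690, 16.8 and 7.22 FPKM in the β-catenin libraries and at 0.942, 11.2 and 3.25 FPKM in the control libraries, with overlapping groups and no call (adjusted p = 0.767). Il20 was listed at 0 in all 6 libraries and Il19 did not exceed 0.113 FPKM.

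The non-coding gene Gm15848, antisense to Fcamr and overlapping it, was at 8.87, 62.2 and 50.3 FPKM in the β-catenin libraries and at 0.243, 0.373 and 0.432 FPKM in the control libraries. Whether counting used the strand is not given in the sources used here, so reads of overlapping genes cannot be told apart. Without 244 the log2 fold changes were 5.73 for Pigr, 4.63 for Fcamr, 5.401 for Gm15848 and 5.04 for Il24, with adjusted p values of 2.2e-05, 6.31e-05, 2.2e-05 and 4.34e-05. With 6 libraries the calls of Pigr, Fcamr and Gm15848 were lost with voom (adjusted p = 0.148, 0.12 and 0.0751). Leaving out 1 library ended the call of Fcamr without 262, 242, 249 or 251 (adjusted p from 0.0538 to 0.0599) and that of Il24 without control 251 (0.0533).

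A further stretch on chromosome 1 holds Gpr25, an orphan G protein-coupled receptor (chr1:136259797-136260873), at 9.31, 47.6 and 34.6 FPKM in the β-catenin libraries and listed at 0 in all controls. On its left, Inava, an adaptor of innate immune signalling, was at 2.29, 22.1 and 17.3 FPKM in the β-catenin libraries and listed at 0 in all controls. Between them the non-coding genes A430034D21Rik and Gm37552 reached 20.5 and 24.2 FPKM in β-catenin library 262, while no control exceeded 0.0112 FPKM. Gm26781, which overlaps Gpr25 on the other strand, was at 6.49, 33.0 and 30.1 FPKM in the β-catenin libraries and at 0.164, 0.0651 and 0.0212 FPKM in the control libraries (log2 fold change 4.91 without 244). All 5 genes were called in both fits, and 244 was the lowest β-catenin library for each. Camsap2, which overlaps Gm26781 on the right, was at 4.18, 10.8 and 9.10 FPKM in the β-catenin libraries and at 7.14, 6.49 and 5.75 FPKM in the control libraries, and was not called with 6 libraries (adjusted p = 0.659). Its log2 fold change without 244 was 0.55 (adjusted p = 0.0231). With 6 libraries voom lost the calls of Inava, A430034D21Rik, Gm37552 and Gm26781 (adjusted p from 0.0627 to 0.0776). The call of Inava also ended without 262, 242, 249 or 251 (adjusted p from 0.0565 to 0.0651), and that of A430034D21Rik without 242, 249 or 251 (from 0.0508 to 0.0584).

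**Figure D4:**
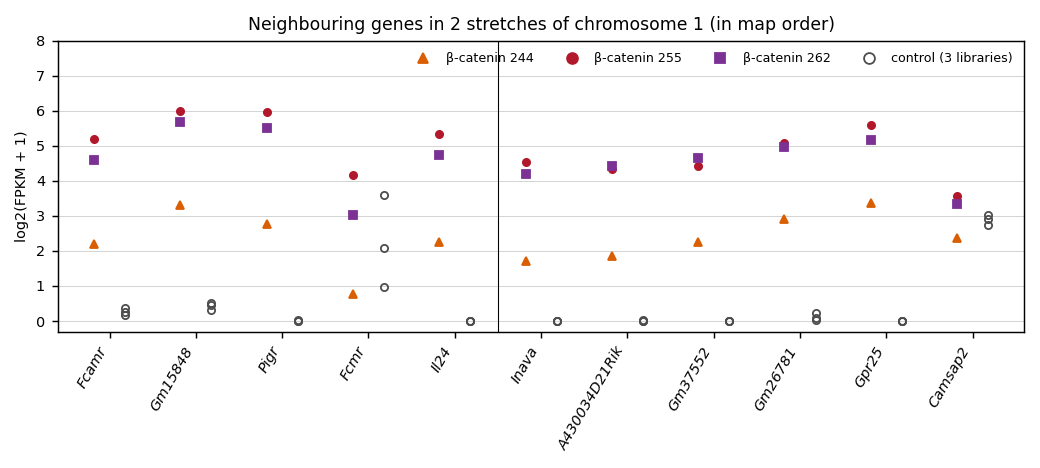
Level of neighbouring genes in both stretches of chromosome 1, in map order from left to right, as log2(FPKM + 1) per library; filled symbols are β-catenin libraries and open circles the 3 controls. Fcmr, between Pigr and Il24, and Camsap2, at the right end of its stretch, were not called with 6 libraries.

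Among the 20 largest falls outside the usual markers, 10 were called whichever library was left out. Eng, endoglin, a co-receptor for TGF-β family ligands, was at 0.865, 4.10 and 8.62 FPKM in the β-catenin libraries and at 122, 105 and 97.7 FPKM in the control libraries. Its log2 fold change was -4.59 ± 0.57 (SE, adjusted p = 0.00392), and -3.95 without 244 (adjusted p = 0.000198). Pld4, an exonuclease of endolysosomes, was at 6.69, 6.85 and 16.6 FPKM in the β-catenin libraries and at 99.5, 100 and 102 FPKM in the control libraries (log2 fold change -3.31 in 6 libraries, -3.11 without 244). Cd36, a scavenger receptor that takes up fatty acids, was at 0.779, 0.592 and 1.06 FPKM in the β-catenin libraries and at 10.7, 25.3 and 14.0 FPKM in the control libraries (-3.21 in 6 libraries, -3.20 without 244). Cd36 and Pld4 were about as low in 255 as in 244, unlike the B lineage sum of 156, 2025 and 1766 FPKM. They are not typical, since 244 was the lowest β-catenin library in 19 of the 20 largest falls. Of the 2161 genes lower in both fits, 892 (41.3%) had the B lineage order 255 above 262 above 244, against 28.6% of all tested genes. The order 244 above 262 above 255 held for 243 (11.2%), against 29.0% of all tested genes.

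Ehd2, an ATPase of caveolae, was at 0.334, 0.719 and 0.851 FPKM in the β-catenin libraries and at 10.9, 32.3 and 19.96 FPKM in the control libraries. P2rx3, an ATP-gated channel known from sensory neurons, was at 0.319, 2.25 and 2.22 FPKM in the β-catenin libraries and at 24.7, 25.8 and 27.99 FPKM in the control libraries. Rsph1, a component of the radial spoke of motile cilia, was at 0.292, 1.47 and 1.72 FPKM in the β-catenin libraries and at 20.3, 23.4 and 22.9 FPKM in the control libraries. These falls were nearly complete in each β-catenin library, with log2 fold changes of -3.50, -3.07 and -3.16 without 244 (adjusted p = 0.00139, 3.05e-05 and 3.66e-05). Heyl, a repressor downstream of Notch, was at 0.3, 4.04 and 7.82 FPKM in the β-catenin libraries and at 64.2, 52.5 and 44.2 FPKM in the control libraries (log2 fold change -3.80 in 6 libraries and -3.02 without 244). Hivep3, a large zinc finger protein, was at 5.16, 14.5 and 14.7 FPKM in the β-catenin libraries and at 136, 104 and 102 FPKM in the control libraries (log2 fold change -2.87 without 244). The protease Tmprss3 and Plxdc1, a membrane protein related to plexins by part of its sequence, fell with log2 fold changes of -3.92 and -3.39 (-3.37 and -2.63 without 244).

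In the remaining 10 of the 20 lowest genes the call ended when 1 library was left out, and in each of the 9 described here 244 was far below 255 and 262. Scd1, the desaturase that makes monounsaturated fatty acids, was at 3.802, 27.7 and 23.02 FPKM in the β-catenin libraries and at 135, 118 and 140 FPKM in the control libraries, with a log2 fold change of -3.14 (adjusted p = 0.0169), and -2.33 without 244. Its adjusted p without control 242, 249 or 251 was 0.0611, 0.0578 or 0.0697. Alpl, tissue non-specific alkaline phosphatase, was at 2.07, 38.6 and 24.4 FPKM in the β-catenin libraries and at 115, 210 and 188 FPKM in the control libraries (log2 fold change -2.40 without 244), with a largest adjusted p of 0.108, without control 251. Tmem59l, Fgd2, Foxc1, Wdfy4, Smtnl2, B3gnt8 and Cyp4f18 behaved alike, with adjusted p without control 251 of 0.0863, 0.0995, 0.0782, 0.121, 0.0725, 0.0583 and 0.124. With 255 and 262 alone, where a call was a condition of the list, these 9 had log2 fold changes from -2.67 for Tmem59l to -1.98 for Cyp4f18.

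Integrins are αβ receptors for matrix and for adhesion molecules of other cells. Of 19 chains tested, 13 were higher, 0 lower and 6 not called, against 18.6% higher and 17.7% lower over all tested genes, and the median log2 fold change was 1.62 against -0.02. Without 244 the count was 14 higher and 0 lower with a median of 1.37. It was 7 or 8 higher when 1 of the libraries 262, 242, 249 and 251 was left out, and 9 higher and 1 lower with no filter on low values. The β7 partner αE, encoded by Itgae, was at 71.3, 16.4 and 30.0 FPKM in the β-catenin libraries and at 0.83, 0.915 and 0.702 FPKM in the control libraries (log2 fold change 4.23 in 6 libraries, 3.68 without 244). Itga1, a collagen-binding chain, was at 21.3, 4.77 and 7.51 FPKM in the β-catenin libraries and at 0.172, 0.169 and 0.188 FPKM in the control libraries (log2 fold change 2.57 without 244). The other β7 partner, Itga4, had the reverse order of β-catenin libraries, at 67.7, 155 and 88.8 FPKM, against 50.8, 44.1 and 40.1 FPKM in the control libraries (log2 fold change 1.11 in 6 libraries and 1.37 without 244). Itgb1, the β1 chain that many matrix receptors share, was at 126, 73.4 and 80.7 FPKM in the β-catenin libraries and at 90.8, 76.1 and 85.3 FPKM in the control libraries (log2 fold change -0.12 without 244) and was not called.

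The TNF ligands and receptors carry costimulatory and death signals. They had 17 of 30 members higher and 2 lower (63.3% called, against 36.3% of all tested genes), and 18 and 3 without 244. Between 7 and 10 were higher when 1 of 262, 242, 249 and 251 was left out. Tnfrsf1a, the main receptor for TNF, was at 160, 50.1 and 93.5 FPKM in the β-catenin libraries and at 2.89, 2.53 and 2.45 FPKM in the control libraries (log2 fold change 4.67 ± 0.40 SE, adjusted p = 0.0017, and 4.26 without 244). Tnfsf8, the ligand of CD30, was at 23.6, 14.7 and 12.6 FPKM in the β-catenin libraries and at 0.868, 1.57 and 1.72 FPKM in the control libraries (log2 fold change 2.64 without 244). Cytokine receptor genes other than Il7r had 18 of 35 members higher and 5 lower (65.7% called), and 18 and 7 without 244. Il12rb2, a chain of the IL12 receptor, was at 81.0, 19.1 and 33.6 FPKM in the β-catenin libraries and at 0.778, 1.58 and 1.02 FPKM in the control libraries (log2 fold change 3.65 without 244). Il9r was lowest in 244 and highest in 262 among the β-catenin libraries, at 2.57, 5.92 and 6.43 FPKM, against 0, 0.107 and 0 FPKM in the control libraries (log2 fold change 2.46 in 6 libraries and 2.79 without 244). Between 10 and 12 of these receptors were higher when 1 of 262, 242, 249 and 251 was left out.

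Cytokines were mixed, with 5 of 13 higher and 3 lower in both fits (61.5% called, against 36.3% of all tested genes with 6 libraries). There were 8 higher without 255 and 3 higher without control 251. Il18, a cytokine that acts on lymphocytes after cleavage by caspase 1, was at 13.0, 14.7 and 21.7 FPKM in the β-catenin libraries and at 1.61, 2.12 and 1.61 FPKM in the control libraries (log2 fold change 2.62 in 6 libraries and 2.77 without 244). Flt3l, the ligand of the progenitor receptor FLT3, was at 55.9, 31.2 and 45.7 FPKM in the β-catenin libraries and at 3.07, 6.98 and 6.09 FPKM in the control libraries (log2 fold change 2.66 without 244). The subunit Il12a fell, to 0.484, 5.25 and 6.34 FPKM in the β-catenin libraries against 23.5, 24.3 and 21.01 FPKM in the control libraries. That call ended without control 242, 249 or 251 (adjusted p = 0.0751, 0.0768 and 0.0781), while without 244 the log2 fold change was -1.82 (adjusted p = 0.000212).

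Extracellular ATP and adenosine signalling had 7 of 14 members higher and 3 lower (71.4% called, against 36.3% of all tested genes), and 9 and 2 without 244. Between 4 and 6 were higher when 1 of 262, 242, 249 and 251 was left out. Nt5e, CD73, the surface enzyme that makes adenosine from AMP, was at 33.2, 71.7 and 75.7 FPKM in the β-catenin libraries and at 2.84, 1.08 and 1.89 FPKM in the control libraries (log2 fold change 4.34 ± 0.38 SE, adjusted p = 0.00176, and 4.71 without 244). P2rx7, the ATP-gated channel of the inflammasome pathway, was at 65.0, 17.6 and 35.8 FPKM in the β-catenin libraries and at 5.21, 5.76 and 5.20 FPKM in the control libraries (log2 fold change 2.04 without 244). The related channel P2rx3 fell, as described above. The sphingolipid group had 9 of 27 members higher and 3 lower (44.4% called), and 14 and 6 of 28 without 244. Cers6, a ceramide synthase of that group, was at 65.9, 47.1 and 48.1 FPKM in the β-catenin libraries and at 3.96, 2.11 and 2.48 FPKM in the control libraries (log2 fold change 3.69 without 244).

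Adhesion molecules of epithelial type went both ways. Of 11 cadherin, claudin and junction genes 4 were higher and 4 lower (72.7% called, against 36.3% of all tested genes). Without 244 it was 4 and 3 of 12. Only 1 or 2 were lower when 1 of 262, 242, 249 and 251 was left out. Cdh1, E-cadherin, whose tail binds β-catenin at the membrane, was at 7.82, 11.9 and 24.0 FPKM in the β-catenin libraries and at 0.273, 0.437 and 0.0223 FPKM in the control libraries (log2 fold change 3.52 ± 0.39 SE, adjusted p = 0.0031, and 3.86 without 244). Tjp1, the junction scaffold ZO-1, was at 3.93, 5.95 and 3.62 FPKM in the β-catenin libraries and at 0.5, 0.445 and 0.238 FPKM in the control libraries (log2 fold change 2.03 without 244). Pcdh9, a protocadherin, fell to 0.00555, 1.29 and 0.343 FPKM in the β-catenin libraries, against 14.4, 10.5 and 9.11 FPKM in the control libraries (log2 fold change -2.79 without 244). Among tetraspanins, which organise membrane patches, 4 of 19 were higher and 7 lower (57.9% called), and 7 and 10 of 20 without 244. Between 3 and 6 were lower when 1 of 262, 242, 249 and 251 was left out. Cd82 was at 494, 267 and 316 FPKM in the β-catenin libraries and at 54.3, 69.1 and 59.8 FPKM in the control libraries (log2 fold change 2.24 without 244), whereas Tspan32 was at 6.27, 6.68 and 8.46 FPKM in the β-catenin libraries and at 35.7, 36.9 and 40.2 FPKM in the control libraries (log2 fold change -2.18 without 244).

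Galectins bind glycans that glycosyltransferases build, and genes of both were measured. Of 7 genes matched by galectin symbols 4 were higher and 0 lower in both fits (57.1% called, against 36.3% of all tested genes with 6 libraries). The median log2 fold change of the 7 was 1.42, and 1.25 without 244. Among the 4 is Lgals3bp, which encodes a protein that binds galectin 3 and is not itself a galectin. Its call ended in the fit of all 12 libraries (adjusted p = 0.16). That of Lgalsl ended without 262, 242, 249 or 251 and with voom. Lgals3 was at 257, 59.3 and 166 FPKM in the β-catenin libraries and at 3.21, 11.02 and 7.19 FPKM in the control libraries (log2 fold change 3.75 without 244), and the more abundant Lgals1 was at 576, 368 and 447 FPKM in the β-catenin libraries and at 171, 167 and 172 FPKM in the control libraries (log2 fold change 1.25 without 244). Of 60 glycosyltransferases 22 were higher and 14 lower, and 25 and 15 without 244. Between 9 and 16 were higher and between 7 and 10 lower when 1 of 262, 242, 249 and 251 was left out. Gcnt1, which starts the core 2 branch of O-glycans, was at 66.4, 13.6 and 24.5 FPKM in the β-catenin libraries and at 2.51, 2.91 and 3.32 FPKM in the control libraries (log2 fold change 2.31 without 244). B3gnt5, which starts lacto-series glycolipids, fell to 2.61, 1.31 and 2.31 FPKM in the β-catenin libraries, against 15.6, 25.2 and 24.8 FPKM in the control libraries (log2 fold change -2.89 in 6 libraries and -3.02 without 244). St6gal1, which adds α2,6-linked sialic acid, was at 1.61, 11.7 and 10.8 FPKM in the β-catenin libraries and at 45.8, 55.1 and 57.8 FPKM in the control libraries (log2 fold change -2.14 without 244). Its call ended without control 242, 249 or 251 (adjusted p = 0.0549, 0.0623 and 0.0697).

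Secreted and membrane proteases and their inhibitors showed single strong rises. Among 10 serpins 5 were higher and 2 lower (70.0% called, against 36.3% of all tested genes), and 6 and 2 without 244. The count was 3 higher when 1 of 262, 242, 249 and 251 was left out. Serpina3g, one of several near-identical copies among which reads may be split, was at 605, 118 and 189 FPKM in the β-catenin libraries and at 11.9, 15.4 and 9.87 FPKM in the control libraries (log2 fold change 3.51 without 244). Adam8, a metalloprotease of leukocytes, was at 130, 19.2 and 53.6 FPKM in the β-catenin libraries and at 2.21, 3.87 and 2.68 FPKM in the control libraries (log2 fold change 3.77 in 6 libraries and 3.11 without 244). Mmp15, a membrane-type metalloprotease, had the order of Serpine2, at 3.001, 28.4 and 13.0 FPKM in the β-catenin libraries and at 0.0278, 0 and 0 FPKM in the control libraries. It was called without 244 (adjusted p = 0.000271), while its 6-library call (0.0131) ended without control 249 or 251 (0.051 and 0.0574) and with voom (0.13).

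Inside the cell, all 8 GIMAP genes, which encode small GTPases of lymphocyte survival, were higher in both fits. Over all tested genes 18.6% were higher with 6 libraries. Their median log2 fold change was 2.44, and 2.06 without 244. Gimap3 was at 415, 84.6 and 204 FPKM in the β-catenin libraries and at 4.86, 9.30 and 7.09 FPKM in the control libraries (log2 fold change 4.62 ± 0.57 SE, adjusted p = 0.00392, and 4.07 without 244). Gimap7 was at 303, 99.1 and 179 FPKM in the β-catenin libraries and at 12.04, 8.96 and 12.05 FPKM in the control libraries (log2 fold change 3.49 without 244). Gimap1 changed least, with 180, 126 and 162 FPKM in the β-catenin libraries and 108, 108 and 102 FPKM in the control libraries (log2 fold change 0.43 without 244). In 6 of the 8 genes the call held without 262, 242, 249 or 251, and centring on the median left 7 of 8. All but Gimap9 had the library order of the NK and innate lymphoid sum. The genes are neighbours on 1 chromosome and similar in sequence, so they are not independent.

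The S100 proteins and annexins, small calcium sensors and membrane binders, had 9 of 15 members higher and 0 lower, and 10 and 0 without 244. Without 255 the count was 14. S100a11 was at 474, 154 and 271 FPKM in the β-catenin libraries and at 37.2, 68.9 and 63.0 FPKM in the control libraries (log2 fold change 2.29 in 6 libraries and 1.89 without 244). Among 9 RGS proteins, which end G protein signals, 4 were higher and 2 lower (66.7% called), and 5 and 2 without 244. The counts were 6 and 1 without 255, 3 and 1 without 262 or control 242, and 3 and 0 without control 249 or 251. Rgs3 was at 120, 33.7 and 63.3 FPKM in the β-catenin libraries and at 3.11, 3.14 and 2.95 FPKM in the control libraries (log2 fold change 3.54 without 244). Both subunits of soluble guanylyl cyclase, the nitric oxide receptor, rose, with Gucy1b3 at 3.15, 11.6 and 7.80 FPKM in the β-catenin libraries and at 0.0722, 0 and 0.016 FPKM in the control libraries (log2 fold change 3.36 without 244). Gucy1a3 had 2.72, 11.6 and 6.98 FPKM in the β-catenin libraries and 0.0759, 0.0362 and 0.177 FPKM in the control libraries (log2 fold change 2.72 in 6 libraries and 3.20 without 244).

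Ion channels gave further genes that were close to absent in controls. Trpm1, a cation channel known from retina and melanocytes, was at 4.54, 15.1 and 16.9 FPKM in the β-catenin libraries and is listed at 0 in all controls (adjusted p = 0.00421, and 3.35e-05 without 244). Kcnj8, a potassium channel subunit gated by ATP, was at 3.74, 6.49 and 7.44 FPKM in the β-catenin libraries and is also listed at 0 in all controls (adjusted p = 0.00011 without 244). The calcium channel Cacna1h fell, to 0.0545, 2.63 and 0.278 FPKM in the β-catenin libraries against 15.2, 13.1 and 13.5 FPKM in the control libraries (log2 fold change -2.79 without 244). Of 47 genes of calcium entry and release 14 were higher and 10 lower (51.1% called, against 36.3% of all tested genes). That majority turned to 10 higher and 11 lower after centring on the median and to 9 and 10 after quantile normalization. When 1 of 262, 242, 249 and 251 was left out, 3 to 5 were higher and 7 or 8 lower, and without 244 it was 21 and 13.

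In the phosphoinositide pathway 15 of 51 genes were higher and 11 lower (51.0% called, against 36.3% of all tested genes). The counts were 13 each after centring on the median, and 17 and 13 without 244. Between 5 and 10 were higher when 1 of 262, 242, 249 and 251 was left out. Pik3ap1, BCAP, an adaptor that links the B cell receptor and Toll-like receptors to PI3 kinase, fell to 32.5, 19.7 and 21.9 FPKM in the β-catenin libraries, against 102, 107 and 86.6 FPKM in the control libraries (log2 fold change -1.98 ± 0.20 SE, adjusted p = 0.00238, and -2.19 without 244). Inpp4b, a phosphatase of PI(3,4)P2, was at 27.6, 28.9 and 23.7 FPKM in the β-catenin libraries and at 8.80, 2.78 and 3.29 FPKM in the control libraries (log2 fold change 2.33 without 244). Among Toll-like and NOD-like receptors 2 of 17 were higher and 4 lower, which turned to 4 and 3 in the fit of all 12 libraries and to 3 and 1 at a filter of 5 FPKM, and it was 2 and 5 without 244. Nlrp3, the inflammasome sensor, was at 1.15, 1.61 and 3.79 FPKM in the β-catenin libraries and at 21.1, 17.5 and 17.97 FPKM in the control libraries (log2 fold change -2.48 without 244), while Nod1 was at 33.7, 8.52 and 14.4 FPKM in the β-catenin libraries and at 1.29, 1.39 and 0.968 FPKM in the control libraries (log2 fold change 2.45 without 244). Without 255 that family had 7 higher and 4 lower. With 6 libraries 35.3% of its members were called, near the 36.3% of all tested genes.

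Genes of the cytoskeleton rose more often than they fell, but by little among tubulins and septins. Of those 25 genes 5 were higher and 3 lower, and 9 and 3 without 244. That is 32.0% called with 6 libraries, near the 36.3% of all tested genes, against 54.3% of the family of myosins. Of 29 intermediate filaments, ERM proteins and actin regulators 14 were higher and 4 lower (62.1% called), and 14 and 5 of 30 without 244. Of 35 myosins, troponins and tropomyosins 14 were higher and 5 lower, and 20 and 7 of 38 without 244, with 6 to 8 higher when 1 of 262, 242, 249 and 251 was left out. Myo1f, a class I myosin of leukocytes, was at 126, 27.5 and 54.8 FPKM in the β-catenin libraries and at 3.29, 3.601 and 3.79 FPKM in the control libraries (log2 fold change 3.13 without 244), and Myo7a fell to 2.22, 5.05 and 4.76 FPKM in the β-catenin libraries against 33.7, 29.0 and 27.5 FPKM in the control libraries (log2 fold change -2.39 without 244). Tubb2a, a β-tubulin, was at 27.3, 85.2 and 63.3 FPKM in the β-catenin libraries and at 3.05, 3.08 and 2.81 FPKM in the control libraries (log2 fold change 3.76 in 6 libraries and 4.23 without 244). Fmnl3, a formin that extends actin filaments, was at 38.3, 53.3 and 50.7 FPKM in the β-catenin libraries and at 7.68, 9.20 and 8.73 FPKM in the control libraries (log2 fold change 2.48 without 244). Lmna, which encodes lamins A and C, was at 38.3, 17.7 and 42.8 FPKM in the β-catenin libraries and at 2.48, 4.11 and 3.69 FPKM in the control libraries (log2 fold change 2.71 without 244).

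Among 172 solute carriers 36 were higher and 31 lower, and 46 and 35 of 175 without 244, near the shares of all tested genes, and the balance turned to 28 higher and 40 lower after centring on the median and to 28 and 38 after quantile normalization. Between 16 and 18 were higher and between 12 and 18 lower when 1 of 262, 242, 249 and 251 was left out. Slc40a1, ferroportin, the iron exporter, was at 8.30, 5.66 and 7.63 FPKM in the β-catenin libraries and at 0.0667, 0 and 0 FPKM in the control libraries (log2 fold change 2.99 in 6 libraries and 2.89 without 244). Slc11a2, the iron importer DMT1, rose as well, at 58.5, 77.6 and 84.3 FPKM in the β-catenin libraries and 27.98, 34.3 and 26.4 FPKM in the control libraries (log2 fold change 1.43 without 244). Tfr2, a transferrin receptor, was at 0.191, 0.241 and 0.394 FPKM in the β-catenin libraries and at 3.74, 3.69 and 4.05 FPKM in the control libraries (log2 fold change -1.88 without 244). Of 20 iron and heme genes 4 were higher and 3 lower, and 9 and 3 without 244. That is 35.0% called with 6 libraries, near the 36.3% of all tested genes.

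Fatty acid oxidation and lipid binding had 17 of 62 members higher and 2 lower, and 21 and 5 of 63 without 244. With 6 libraries 30.6% of them were called, against 36.3% of all tested genes. The count of rises was 8 or 9 when 1 of 262, 242, 249 and 251 was left out and 23 without 255. Cpt1a, which admits long-chain fatty acids to mitochondria, was at 29.3, 64.8 and 52.0 FPKM in the β-catenin libraries and at 11.8, 11.8 and 10.7 FPKM in the control libraries (log2 fold change 1.93 ± 0.28 SE, adjusted p = 0.00586, and 2.25 without 244). Acadsb, a short branched-chain acyl-CoA dehydrogenase, was at 29.9, 57.2 and 47.9 FPKM in the β-catenin libraries and at 10.7, 8.56 and 10.4 FPKM in the control libraries (log2 fold change 2.30 without 244). Both were lowest in 244 among the β-catenin libraries and above every control. Aldh1a3, which makes retinoic acid, was at 14.1, 66.6 and 28.3 FPKM in the β-catenin libraries and at 0.109, 0.0979 and 0.106 FPKM in the control libraries (log2 fold change 4.81 in 6 libraries and 5.33 without 244). It has the library order of Stra6, the retinol receptor. Cyp1b1, a cytochrome P450 that also acts on retinoids, was at 3.28, 9.12 and 9.24 FPKM in the β-catenin libraries and is listed at 0 in all controls (adjusted p = 6.39e-05 without 244).

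Genes of nucleotide synthesis were called lower more often than higher. Of 40 genes of purine and pyrimidine synthesis with adenylate kinases, 22 were lower, 3 higher and 15 not called, against 17.7% lower and 18.6% higher over all tested genes, and the median log2 fold change was -0.40. Without 244 the counts were 24 lower and 4 higher of 42, with a median of -0.37. Between 8 and 13 were lower when 1 of 262, 242, 249 and 251 was left out. Adssl1, an adenylosuccinate synthase, was at 8.64, 5.26 and 6.77 FPKM in the β-catenin libraries and at 27.0, 28.9 and 30.8 FPKM in the control libraries (log2 fold change -2.10 without 244). Samhd1, which degrades deoxynucleotides, rose, at 141, 153 and 143 FPKM in the β-catenin libraries and 24.6, 54.4 and 41.7 FPKM in the control libraries (log2 fold change 1.92 without 244). Serine, one-carbon and polyamine enzymes had 15 of 32 members lower and 3 higher (56.25% called, against 36.3% of all tested genes), and 18 and 3 without 244. Shmt1, which moves a carbon from serine to folate, was at 21.04, 36.0 and 33.9 FPKM in the β-catenin libraries and at 76.2, 72.4 and 75.0 FPKM in the control libraries (log2 fold change -1.31 in 6 libraries and -1.07 without 244). Between 7 and 9 of that group were lower when 1 of 262, 242, 249 and 251 was left out. The exception Smox, spermine oxidase, was at 13.1, 25.5 and 25.9 FPKM in the β-catenin libraries and at 1.84, 1.30 and 2.21 FPKM in the control libraries (log2 fold change 3.27 without 244).

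The machinery that processes and exports RNA shifted by small amounts in many genes. Of 88 splicing factors 44 were lower and 7 higher (58.0% called), with a median log2 fold change of -0.31. Without 244 it was 45 and 7, with a median of -0.27. Srsf3 was at 185, 245 and 220 FPKM in the β-catenin libraries and at 345.2, 379 and 379 FPKM in the control libraries (log2 fold change -0.77 ± 0.12 SE, adjusted p = 0.00689, and -0.66 without 244). Of 54 nuclear pore and transport genes 23 were lower and 1 higher (44.4% called), and 19 and 4 of 55 without 244 (41.8% called, near the 43.3% of all tested genes). Ndc1, which anchors the pore in the membrane, was at 15.9, 19.7 and 16.3 FPKM in the β-catenin libraries and at 30.0, 31.1 and 29.8 FPKM in the control libraries (log2 fold change -0.73 without 244). Of 66 translation factors 22 were lower and 2 higher, and 27 and 2 without 244. That is 36.4% called with 6 libraries, the share of all tested genes (36.3%), of which 17.7% were lower and 18.6% higher. Eif2ak4, the amino acid sensor GCN2, was at 8.69, 8.001 and 9.48 FPKM in the β-catenin libraries and at 18.2, 18.1 and 16.5 FPKM in the control libraries (log2 fold change -0.93 without 244). When 1 of 262, 242, 249 and 251 was left out, between 8 and 22 splicing factors, 5 and 10 pore genes and 6 and 9 translation factors were lower. After centring on the median the counts lower were 57, 30 and 35.

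A few RNA-binding genes rose against that trend. Hnrnpll, a splicing regulator of lymphocyte CD45, was at 9.64, 4.60 and 6.55 FPKM in the β-catenin libraries and at 0.0666, 0.191 and 0.0932 FPKM in the control libraries (log2 fold change 2.78 in 6 libraries and 2.54 without 244). It favours skipping of the variable exons of CD45 in T cells, and the sort was on an isoform of CD45. Ptprc, which encodes CD45, was at 532, 269 and 332 FPKM in the β-catenin libraries and at 92.2, 105 and 99.5 FPKM in the control libraries (log2 fold change 1.86 in 6 libraries and 1.59 without 244). A gene total does not give the share of its isoforms. Esrp2, an epithelial splicing regulator, was at 1.61, 4.14 and 4.84 FPKM in the β-catenin libraries and at 0.261, 0.178 and 0.203 FPKM in the control libraries (log2 fold change 2.18 without 244).

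Among chaperones and proteasome genes, too, more were lower than higher. Of 76 heat shock proteins and chaperonins 23 were lower and 9 higher, and 25 and 11 without 244. Called members made up 42.1% with 6 libraries and 47.4% without 244, near the 36.3% and 43.3% of all tested genes. Between 6 and 11 were lower when 1 of 262, 242, 249 and 251 was left out. The mitochondrial chaperonin pair Hspd1 and Hspe1 was lower in every β-catenin library than in any control, with Hspd1 at 194, 204 and 173 FPKM in the β-catenin libraries and at 292, 292 and 331 FPKM in the control libraries. Their log2 fold changes were -0.68 and -0.62 in 6 libraries (adjusted p = 0.00536 and 0.00656) and -0.69 and -0.68 without 244. The pair shares a promoter region and is counted in 2 families. Of 46 proteasome genes 12 were lower and 0 higher, and 14 and 2 without 244. With 6 libraries 26.1% of these genes were called, all of them lower. Over all tested genes 36.3% were called and 17.7% were lower. The median log2 fold change of the proteasome genes was -0.19, against -0.02 over all tested genes. Between 1 and 5 were lower when 1 of 262, 242, 249 and 251 was left out. Among 33 genes of homologous recombination and the Fanconi pathway 9 were lower and 2 higher, and 11 and 3 without 244, with 2 to 5 lower when 1 of 262, 242, 249 and 251 was left out. That is 33.3% called, near the 36.3% of all tested genes.

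**Figure D5:**
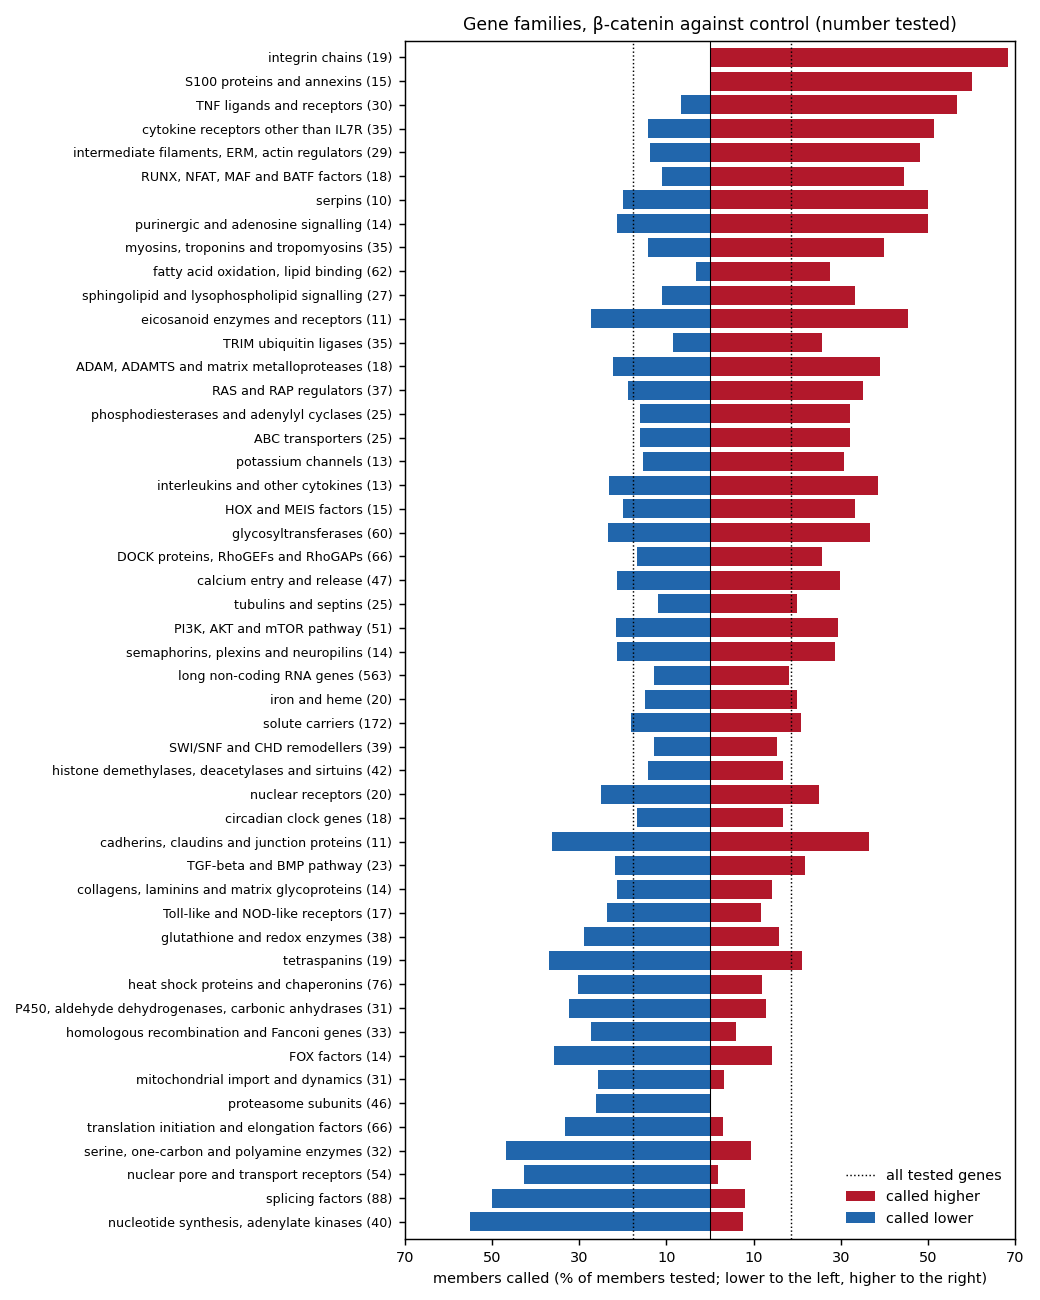
Share of tested members of each gene family called lower (to the left) and higher (to the right) in β-catenin against control with 6 libraries, in percent, with the number tested in brackets; families with at least 10 tested members are drawn. Dotted lines mark all tested genes (17.7% lower, 18.6% higher), with integrins at 13 higher and 0 lower of 19 at the top and nucleotide synthesis at 22 lower and 3 higher of 40 at the bottom.

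Transcription factors outside the lineage lists changed in both directions. Of 18 RUNX, NFAT, MAF and BATF factors 8 were higher and 2 lower (55.6% called), and 10 and 2 without 244. The count was 4 or 5 higher when 1 of 262, 242, 249 and 251 was left out. Runx2, known as the master factor of bone, was at 31.2, 17.8 and 20.1 FPKM in the β-catenin libraries and at 0.623, 0.732 and 0.463 FPKM in the control libraries (log2 fold change 3.87 ± 0.23 SE, adjusted p = 0.000569, and 3.64 without 244). Of 18 circadian clock genes 3 were higher and 3 lower, and 4 and 3 without 244. That is 33.3% called, near the 36.3% of all tested genes. The clock activator Arntl was at 16.1, 41.7 and 38.2 FPKM in the β-catenin libraries and at 191, 151 and 149 FPKM in the control libraries, and its repressor Nr1d1 was at 2.49, 1.55 and 2.36 FPKM in the β-catenin libraries and at 14.4, 14.3 and 12.7 FPKM in the control libraries. Nfil3, an opposing clock factor that NK cells need, rose to 32.5, 9.75 and 19.1 FPKM in the β-catenin libraries, against 2.64, 2.68 and 2.83 FPKM in the control libraries. All 3 clock genes were called in both fits, with log2 fold changes without 244 of -1.997, -2.34 and 1.99. Esr1, an oestrogen receptor, fell to 1.11, 2.39 and 2.44 FPKM in the β-catenin libraries against 9.54, 7.96 and 8.77 FPKM in the control libraries (log2 fold change -1.51 without 244).

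Chromatin regulators moved less. Among 39 SWI/SNF and CHD remodellers 6 were higher and 5 lower, and the balance turned to 3 higher and 11 lower after centring on the median and to 5 and 12 without 255, and it was 7 and 7 without 244. With 6 libraries 28.2% of them were called, against 36.3% of all tested genes. Bcl7a, a SWI/SNF subunit, was at 9.74, 22.5 and 21.2 FPKM in the β-catenin libraries and at 90.7, 123.1 and 100 FPKM in the control libraries (log2 fold change -2.56 in 6 libraries and -2.20 without 244). The ATPases Chd7 and Smarca2 rose, with Smarca2 at 50.8, 78.2 and 64.9 FPKM in the β-catenin libraries and at 24.5, 20.1 and 22.4 FPKM in the control libraries (log2 fold change 1.64 without 244). Among class II deacetylases Hdac5 and Hdac10 fell, with Hdac5 at 30.4, 45.9 and 39.1 FPKM in the β-catenin libraries and at 75.7, 77.3 and 74.9 FPKM in the control libraries (log2 fold change -0.83 without 244) and Hdac10 at 9.42, 11.2 and 12.8 FPKM in the β-catenin libraries and at 24.0, 27.8 and 24.6 FPKM in the control libraries (log2 fold change -1.03 without 244). Over all 42 histone demethylases, deacetylases and sirtuins 7 were higher and 6 lower, and 8 and 7 without 244, which turned to 5 and 7 after centring on the median and to 3 and 6 without 262. That is 31.0% called with 6 libraries, against 36.3% of all tested genes.

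Long non-coding RNA genes were called at 31.1%, against 36.3% of all tested genes, with 102 of 563 higher and 73 lower, and 136 and 95 of 620 without 244. Meg3 and Rian, maternally expressed genes of the imprinted Dlk1 to Dio3 region on chromosome 12, rose together. Meg3 was at 11.47, 17.9 and 33.4 FPKM in the β-catenin libraries and at 0.157, 0.0534 and 0.0926 FPKM in the control libraries (log2 fold change 4.19 ± 0.36 SE, adjusted p = 0.00176, and 4.53 without 244). Rian was at 19.0, 19.5 and 34.4 FPKM in the β-catenin libraries and at 0.143, 0.0513 and 0.156 FPKM in the control libraries (log2 fold change 4.45 in 6 libraries and 4.59 without 244). Dlk1, the paternally expressed coding gene of the region and a Notch-like surface protein, was at 17.7, 8.25 and 19.3 FPKM in the β-catenin libraries and at 0.21, 0.406 and 0.405 FPKM in the control libraries (log2 fold change 3.51 in 6 libraries and 3.36 without 244). All 3 calls held whichever library was left out. Dlk1, like Itga4, Itgb1, Gimap1 and Gimap9 above and Kit and Inppl1 below, was chosen after its values were seen.

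Gm19590 was at 174, 36.0 and 83.7 FPKM in the β-catenin libraries and at 2.24, 2.90 and 1.05 FPKM in the control libraries (log2 fold change 4.24 without 244), the library order of the NK and innate lymphoid sum. Its nearest coding gene is Kdr, at 97182 bases, which was not among the tested genes, and Kit lies farther away, at 176313 bases. Kit, the receptor of stem cell factor, was at 599, 169 and 271 FPKM in the β-catenin libraries and at 24.7, 20.3 and 17.5 FPKM in the control libraries (log2 fold change 3.31 without 244). Among the falls, Gm12066 lies 27295 bases from Bcl11a, a transcription factor of the B lineage. Gm12066 was at 0.048, 0.77 and 0.675 FPKM in the β-catenin libraries and at 13.9, 17.1 and 11.7 FPKM in the control libraries (log2 fold change -3.13 without 244). Gm10602 overlaps Inppl1, the phosphatase SHIP2, and also Folr2, each on the other strand. Both Gm10602 and Inppl1 fell, and Folr2 was not among the tested genes. Gm10602 was at 0.454, 0.527 and 2.21 FPKM in the β-catenin libraries and at 10.4, 18.7 and 10.8 FPKM in the control libraries (log2 fold change -2.64 without 244), and Inppl1 at 6.64, 4.85 and 13.3 FPKM in the β-catenin libraries and at 54.4, 112 and 61.4 FPKM in the control libraries (log2 fold change -3.00 without 244). Gm11754, Gm30948 and Gm13919 fell with log2 fold changes of -3.69, -3.31 and -2.88, and -3.25, -3.08 and -2.63 without 244. Gm30948 lies at chr12:115262684-115287908, and its nearest protein-coding gene, Zfp386, is 759816 bases away. The search for neighbours took protein-coding genes only and left out immunoglobulin segments.

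Some calls were lost without 244. Of the 4656 genes called with 6 libraries, 192 (84 higher, 108 lower) were not called without it. The largest was Cpa3, carboxypeptidase A3 of mast cells and a member of that marker list, at 121, 20.2 and 145 FPKM in the β-catenin libraries and at 0.938, 12.1 and 9.01 FPKM in the control libraries (log2 fold change 3.51, adjusted p = 0.0388, and 3.13 with 0.0555 without 244). Library 255 lies close to controls 249 and 251 there. The next were Pdlim7, Eps8, Tmc8, Tmub1 and Cyp51, with adjusted p from 0.0399 to 0.0498 with 6 libraries and from 0.0516 to 0.0663 without 244, so these calls sit at the threshold in both fits. They do not depend on 244 alone. The call of Cpa3 also ended without 262, 242, 249 or 251 (adjusted p = 0.115, 0.0979, 0.0678 and 0.0912), and each of the other 5 also ended without at least 3 further libraries, with a largest adjusted p from 0.126 for Cyp51 to 0.141 for Tmub1.

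A larger number, 1242 genes, was called with 255 and 262 alone and not with 6 libraries (694 higher and 548 lower). Rnase12 was at 3.70, 125 and 75.7 FPKM in the β-catenin libraries and at 1.77, 4.19 and 4.997 FPKM in the control libraries, and its neighbour on chromosome 14, Rnase10, was at 0.823, 44.6 and 29.3 FPKM in the β-catenin libraries and at 1.75, 1.42 and 1.83 FPKM in the control libraries. Both are ribonuclease A family genes known from the epididymis. Without 244 their log2 fold changes were 4.48 and 3.81 (adjusted p = 0.000415 and 9.35e-05), and with 6 libraries 3.02 and 2.36 (0.103 and 0.167). Slc5a9, a sugar transporter, was at 0.6, 27.3 and 17.1 FPKM in the β-catenin libraries and at 1.36, 0.407 and 0.129 FPKM in the control libraries (log2 fold change 3.87 without 244). Tmem119, known as a microglial marker, was at 1.57, 41.2 and 22.0 FPKM in the β-catenin libraries and at 3.20, 0.97 and 0.971 FPKM in the control libraries (log2 fold change 3.62 without 244), and Ccdc33 had 0.788, 37.7 and 13.1 FPKM in the β-catenin libraries and 2.15, 0.314 and 0.688 FPKM in the control libraries (log2 fold change 3.61 without 244). In these 5 genes 244 lay within or below the range of the controls while 255 and 262 were above every control. Prg3, an eosinophil granule protein, went the other way, at 34.3, 0.14 and 0.669 FPKM in the β-catenin libraries and 6.51, 18.2 and 11.4 FPKM in the control libraries (log2 fold change -3.14 without 244, adjusted p = 0.00199, and -1.58 with 6 libraries, adjusted p = 0.381).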

How the data were processed

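RNA was sequenced from 12 libraries of cultured mouse B cell precursors, of which the 6 sorted on B220 were compared. The authors deposited a table of FPKM values for 47069 genes. Per the submitters' processing notes HISAT2, HTSeq and Cufflinks were used with GRCm38/mm10; settings, versions and the strand of counting are not stated there. No column of the table was left out. Low values were whole multiples of 1 fragment, and for 25185 genes whole fragments rebuilt 100% of the values at a relative tolerance of 1e-08, while 1 gene failed.

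The test was limma 3.58.1 in R 4.3.3 (lmFit and eBayes with a trend, 2-sided) on log2(FPKM + 1), for genes with at least 1 FPKM in 3 of 6 libraries, or in 2 of 5 where a library was left out. Each p-value was adjusted by Benjamini-Hochberg over all genes tested, and an adjusted p under 0.05 was a call. Errors are standard errors of the log2 fold change. The script was tested on simulated data. Members and gene lists were chosen with earlier results of these data known. Named genes are Ctnnb1, Axin2 and Tcf7, the 20 largest protein-coding changes in each direction called in both fits with groups that do not overlap and outside listed lineage markers, up to 4 members of each of 57 families by size of change in both fits, the 6 largest calls lost and the 6 gained without 244, and the 5 largest non-coding changes in each direction. Promoters were read from RefSeq tables. Alternatives were another pseudocount, other filters, quantile normalization, median centring, robust eBayes, all 12 libraries, voom on recovered fragments and each library left out. One of the 20 largest falls is not reported here.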

Additional observations from a re-analysis of the deposited data

How the results depend on the processing

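Genes called higher ranged from 1059 to 2997 and genes called lower from 699 to 2709 when each of the 6 libraries was left out in turn, against 2387 and 2269 with all 6; the lowest counts were without control 251 and the highest without 244. In alternatives chosen after seeing the data, leaving out 244 together with median centring gave 4100 genes lower and 2321 higher, and together with voom 2558 and 2991. Median centring of all 6 libraries gave 37.0% higher genes among calls and quantile normalization 40.8%, against 51.3% without either. No named gene changed direction with a call in either fit. The log2 fold change of Ctnnb1, which was not called, ran from -0.05 to 0.22 when 1 library was left out. Of 259 named genes called, 172 were called in every fit that left out 1 library, 199 under every other alternative and 158 under all; 86 were lost without control 251, 66 each without 242 and 249, 43 without 262, 36 with no filter and 33 with voom. Most of the 259 genes were chosen with a call without 244 as a condition, so that fit is no check of them. The cause of these losses was not tested. No paired analysis was possible because the compared groups share no library numbers.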
